A study of Mus musculus with 4 samples.

Results

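High-scoring Slug sites that lie between genes, away from any annotated gene end and without a Snail peak on top, were described in a mouse breast cancer cell line. They were chosen by measured values of the Slug and Snail chromatin immunoprecipitation (ChIP-seq) peak lists and by position. A Slug peak was taken when its score was 200 or more, no Snail peak overlapped it by 1 bp, its midpoint was outside every RefSeq gene, and the nearest gene end was 10 to 100 kb away. The rule gave 1084 of the 41612 Slug peaks (2.61%), called distal Slug-only peaks here. Score alone kept 6898 peaks, the lack of a Snail overlap 5523 of these, and a midpoint outside genes 2222. Another 979 of those 2222 were nearer than 10 kb to a gene end and 159 were farther than 100 kb.

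The series held 4 libraries: a Slug ChIP and an input DNA of the line pBl.1G, and a Snail ChIP and an input DNA of the line pBl.3G. Both lines came from MMTV-PyMT breast cancer, a model in which polyoma middle T oncogene expression in mammary epithelium is driven by a mammary tumour virus promoter. pBl.1G is labelled epithelial with high Slug and pBl.3G mesenchymal with high Snail; neither line was treated. Slug was precipitated with the rabbit monoclonal C19G7, whereas the labels name SNAIL + SLUG as what the other library's antibody recognises. Line, factor and antibody thus differ between the lists, with 1 library of each, and cannot be told apart. A peak without a Snail overlap is 1 that this other library did not call, and no statement about Snail binding in pBl.1G cells can be drawn from it. The study asked why Slug and Snail differ in how they switch on the epithelial-mesenchymal transition (EMT).

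Slug (gene Snai2) and Snail (Snai1) are zinc finger factors that bind the E-box CAGGTG and are best known as repressors of epithelial genes such as the E-cadherin gene. In the mammary gland Slug belongs to the basal layer and its stem cells, and Snail is associated with tumour cells undergoing EMT. Sites far from gene ends can be enhancers, which can act on distant promoters and may skip the gene that is nearest. A nearby gene is therefore a neighbour of a peak and not its shown target.

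The bases under the distal peaks themselves were not analysed here. Promoter windows of neighbouring genes, 250 bases before to 50 after an annotated start (RefSeq, GRCm38.p6, the assembly of mm10), were searched for CAGGTG and its reverse complement CACCTG, counting overlapping matches. Of 21262 windows of protein-coding genes, 19.7% held a match. Genes with a distal Slug-only peak within 100 kb gave a close share, 254 of 1252 windows (20.3%, 95% Wilson interval 18.2 to 22.6). Where another Slug peak overlapped the window itself, 29 of 64 such windows held a match (45.3%, 33.7 to 57.4), against 225 of 1188 (18.9%, 16.8 to 21.3) without a Slug peak. In 23 of those 29 windows a match lay wholly inside the Slug peak. The rise at Slug-covered windows was not limited to these neighbours, since over all protein-coding genes the shares were 39.4% (36.2 to 42.7) with and 18.9% without a Slug peak. A match is a description of letters and does not show which of them is bound.

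Such windows of 5 genes are printed 5′ to 3′ on the strand of the gene, with each match in capitals, because they combine a distal peak with a Slug peak at the start. The windows of the tight junction claudins Cldn4 (chr5:134946885-134947184, minus strand) and Cldn3 (chr5:134985964-134986263, plus strand) flank 1 distal peak. Cldn4 holds CACCTG 14 bases before its start and CAGGTG 11 bases after it, both inside the Slug peak. Cldn3 holds 1 match, 31 bases after its start. Tmem184a (chr5:139814234-139814533, minus strand) holds 3 and, like Cldn4, has no Snail peak over the window. Hook1, which encodes a microtubule-linked trafficking adaptor (chr4:95967129-95967428, plus strand), holds 1, 84 bases before its start, under a Slug peak with a score of 743. The window of the epithelial factor gene Tfap2a (chr13:40733746-40734045, minus strand) holds none, although a Slug peak with a score of 90.4 covers 256 of its 300 bases. Cldn3, Hook1 and Tfap2a each have a Snail peak over the window.

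Cldn4: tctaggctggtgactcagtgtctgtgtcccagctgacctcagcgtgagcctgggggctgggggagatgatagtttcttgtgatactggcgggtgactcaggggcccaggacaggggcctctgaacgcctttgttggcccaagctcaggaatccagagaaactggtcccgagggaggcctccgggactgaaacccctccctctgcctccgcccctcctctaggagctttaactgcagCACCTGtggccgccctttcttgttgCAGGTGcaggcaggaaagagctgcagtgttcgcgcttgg

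Cldn3: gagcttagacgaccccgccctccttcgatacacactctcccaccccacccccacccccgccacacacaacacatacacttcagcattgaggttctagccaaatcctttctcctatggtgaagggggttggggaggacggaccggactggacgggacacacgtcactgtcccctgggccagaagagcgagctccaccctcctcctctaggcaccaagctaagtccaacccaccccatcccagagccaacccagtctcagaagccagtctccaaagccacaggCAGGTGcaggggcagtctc

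Tmem184a: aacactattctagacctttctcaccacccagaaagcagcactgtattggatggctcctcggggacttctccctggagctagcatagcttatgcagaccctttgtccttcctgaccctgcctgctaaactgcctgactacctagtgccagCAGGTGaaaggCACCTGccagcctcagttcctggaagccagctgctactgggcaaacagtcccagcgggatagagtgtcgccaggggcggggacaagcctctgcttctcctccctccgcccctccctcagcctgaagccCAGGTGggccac

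Hook1: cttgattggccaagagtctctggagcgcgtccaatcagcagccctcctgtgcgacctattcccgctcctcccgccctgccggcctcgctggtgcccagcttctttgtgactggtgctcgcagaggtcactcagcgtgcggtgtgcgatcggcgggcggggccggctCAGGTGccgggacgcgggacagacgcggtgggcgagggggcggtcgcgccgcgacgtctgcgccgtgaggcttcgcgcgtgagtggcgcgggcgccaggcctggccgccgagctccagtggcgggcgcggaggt

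Tfap2a: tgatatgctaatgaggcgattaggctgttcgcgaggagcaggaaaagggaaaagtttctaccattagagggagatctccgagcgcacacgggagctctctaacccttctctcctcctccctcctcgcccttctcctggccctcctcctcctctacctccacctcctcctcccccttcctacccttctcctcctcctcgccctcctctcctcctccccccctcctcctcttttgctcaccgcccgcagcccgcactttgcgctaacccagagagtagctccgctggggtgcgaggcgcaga

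The distal peaks near these starts differed in score. The peak between the claudins, at chr5:134959520-134960060, scored 237 and lay 12.9 kb from the Cldn4 start and 26.4 kb from the Cldn3 start. The distal peak near Tmem184a scored 301 at 40.5 kb, and the higher-scoring of 2 near Tfap2a 710 at 63.7 kb. The peak near Hook1 scored 663 and lay 20.6 kb from its start, but the nearest protein-coding gene end was that of Fggy, at 19.9 kb.

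The first question concerned the peaks themselves. Scores, which entered the rule and are given as a description, had a median of 286 (quartiles 235 and 381) and reached 3100, the highest value in the Slug list. From 200 to under 250 there were 358 (33.0%), and 57 (5.26%) scored 600 or more. The 3 just inside scored 200.01, 200.07 and 200.07, and the 3 just outside 199.98, 199.71 and 199.68, so the limit falls in a continuous distribution. Their median width was 271 bp (quartiles 241 and 313), against 184 bp (155 and 224) for the 7385 peaks under a score of 200 that met the rest of the rule. High-scoring Slug-only peaks in gene bodies, more than 1 kb from any end, were as narrow, at 277 bp (247 and 317, n = 3102). Distal Snail peaks without a Slug overlap, taken at any score, were wider, at 508 bp (427 and 720, n = 2107). Width moved with score. Across the low-scoring distal peaks Spearman's rho was 0.60 and across the distal Slug-only peaks 0.23, both within 1 library, so the width difference from the low-scoring peaks is not independent of the rule.

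**Figure D1:**
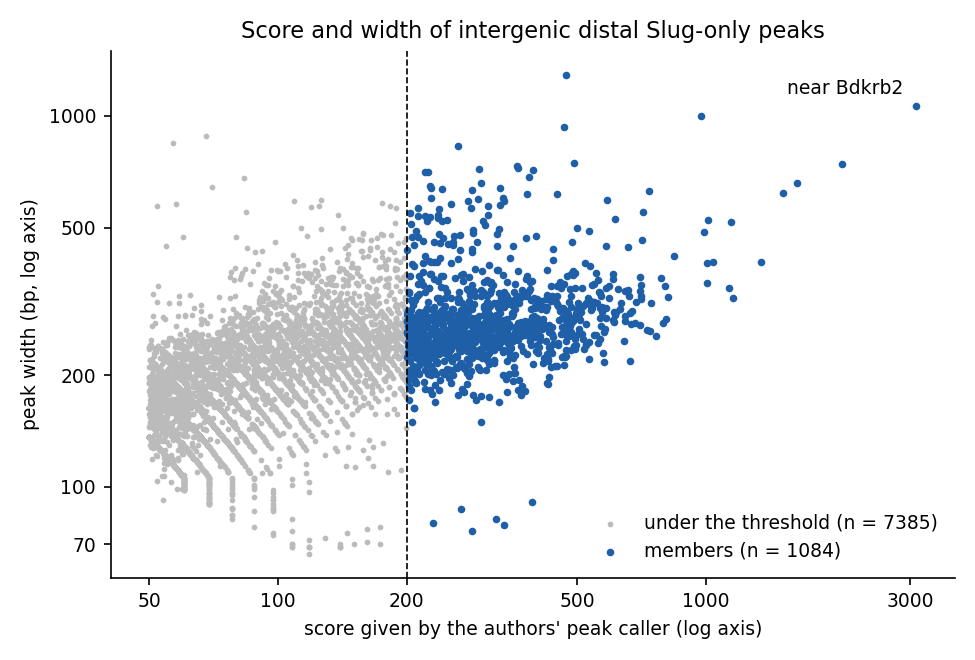
Score (x axis, log scale) and width in bp (y axis, log scale) of each intergenic Slug peak 10 to 100 kb from a gene end and without a Snail overlap. Blue points (members) are the 1084 peaks at a score of 200 or more, grey points the 7385 below it, and the dashed line is the threshold. Width rises with score among the grey points and flattens among the blue ones, and 6 blue points lie below 100 bp with no blue point between 100 and 150 bp.

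Most of the 15 highest-scoring sites were nearest to a lncRNA gene, a pseudogene or another gene without a protein product. At the top stood a peak of 1061 bp at chr12:105549874-105550934 with a score of 3100, 12.8 kb before the start side of Bdkrb2, which encodes the bradykinin B2 receptor. It had a Snail peak 7.05 kb away. The next were a peak 54.3 kb from the fatty acid transporter gene Slc27a6 (score 2077), a peak 30.9 kb from the long non-coding RNA (lncRNA) gene Gm35615 (1628) and a peak 21.9 kb from the pseudogene Gm9240 (1509). Sites 28.1 kb from Prdx6b, 14.7 kb from Lyst (a lysosomal trafficking gene), 65.3 kb from the pseudogene Gm9370 and 21.7 kb from Ccdc190 followed, with scores of 1346, 1156, 1145 and 1130. Below them came a site 282 kb from Maf, which encodes a leucine zipper factor, at 1040, a site near Epas1 at 1011, a site 40.1 kb from the lens crystallin gene Crygf (1006), and a site 402 kb from Prr16 (1005). The last 3 were 54.7 kb from Rgs9 (991), 20.1 kb from the pseudogene Gm10051 (976) and 27.6 kb from the neuronal factor gene Nhlh2 (844). The nearest gene of any kind was protein-coding for 5 of the 15, beside 29.7% of all 1084. The 12 peaks at 1000 or more were wide, with a median of 462 bp (322 to 1061). The widest of all, 1291 bp at chr3:157441320-157442610, scored 472 and lay 92.2 kb from Zranb2, and the peak near Gm10051, 604 kb from the protein-coding gene Castor2, was 997 bp wide.

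Groups were counted among the distal Slug-only peaks alone, which are 2.61% of Slug peaks, so few fellows can be expected from the rule. Within 25 kb of each other, 992 of the 1084 had no fellow, 86 formed 43 pairs and 6 formed 2 triplets. Where any Slug peak lay within 25 kb, the nearest was itself a distal Slug-only peak for 54 of 647 (8.35%). For the low-scoring distal peaks this share was close, 378 of 4163 (9.08%). A triplet lay 17.3 to 33.5 kb outside Epas1, the gene of the hypoxia factor HIF-2alpha (chr17:86753864-86833410). Its peaks scored 1011, 256 and 215 and spanned 16.6 kb, with 1 Snail peak among them. The other triplet, on chromosome Y, is described with the narrow peaks at the end.

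More loosely, 8 protein-coding genes had 3 or more distal peaks within 100 kb. Tns3, which encodes the focal adhesion protein tensin-3, had 4, with scores of 378, 266, 245 and 212: 2 on its start side at 22.3 and 63.9 kb and 2 on its far side at 47.6 and 31.8 kb. With 3 each were Nuak1 (a kinase of the AMPK family, scores 231 to 312), Rgs9 (250 to 991), Ankrd55 (201 to 701), Lrfn2 (211 to 460), Fam20c (a secretory pathway kinase, 224 to 269), Epas1 and its neighbour Prkce. Of the 4 with an annotated start, Tns3, Nuak1 and Fam20c had a Snail peak but no Slug peak within 1 kb of it. Rgs9 had a peak of neither list. Over all protein-coding genes with a start, 51.8% had a Snail peak there.

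The second question concerned what surrounds the sites. Another Slug peak of any score lay within 25 kb of 647 distal Slug-only peaks (59.7%, 56.7 to 62.6), at a median distance of 19.0 kb over all of them. That was close to the low-scoring distal peaks (56.4%, difference 3.32 percentage points, 95% interval 0.158 to 6.41) and below gene body peaks (65.6%, difference -5.95, -9.33 to -2.61). The first difference did not hold among peaks of like width. At 250 to 300 bp 57.7% (52.9 to 62.4) of the high-scoring and 65.2% (61.5 to 68.6) of the low-scoring peaks had a Slug neighbour. The high-scoring share was lower in 4 of 5 width classes and higher at 150 to 200 bp (55.6% and 54.1%). The intervals of the single shares overlapped in each class, which does not show that the shares were equal. No interval of the difference was taken within a width class. Intervals here and below cover counting error in these libraries only. High score did not go with a high-scoring neighbour. Of the 647, 95 (14.7%, 12.2 to 17.6) had a nearest Slug peak that itself scored 200 or more, and 603 of 4163 low-scoring peaks with such a neighbour did (14.5%, 13.4 to 15.6). Score bins showed no order either, from 63.4% (58.3 to 68.2) at 200 to 250 to 52.6% (39.9 to 65.0) at 600 or more.

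Snail peaks were scarcer nearby. Although the rule barred only an overlap, 333 of the 1084 (30.7%, 28.0 to 33.5) had a Snail peak within 25 kb, and 11 had a Snail midpoint within 1 kb. In gene bodies 50.5% (48.7 to 52.2) of high-scoring Slug-only peaks had a Snail peak within 25 kb, a difference of -19.7 percentage points (-22.9 to -16.4). The median distance to a Snail peak was 59.4 kb for the distal and 24.6 kb for the gene body peaks. Gene density moved with this: a median of 5 protein-coding genes (quartiles 2 and 9) lay within 500 kb of distal Slug-only peaks and 9 (5 and 16) of gene body peaks. The rule also sets the distance to gene ends, with a median of 26.4 kb for the distal and 12.4 kb for the gene body peaks, and Snail peaks lay a median of 1.81 kb from a gene end. The contrast with gene bodies is therefore a description that is not independent of the rule. Against low-scoring distal peaks, of which 26.8% (25.8 to 27.8) had a Snail peak within 25 kb, the difference was 3.92 points (1.06 to 6.90). It was not there among peaks of like width. At 250 to 300 bp the shares were 30.1% (25.8 to 34.7) and 36.0% (32.5 to 39.6), and at 300 to 400 bp 36.2% and 42.1%. In all 5 width classes from 150 to 600 bp the share was lower for the high-scoring peaks. The intervals of the single shares overlapped, but here too no interval of the difference was taken within a class. Where a Snail peak was within 25 kb of a distal Slug-only peak, 20.1% of those nearest Snail peaks were at a gene end and 20.5% for the low-scoring peaks, which keep the same distance from gene ends.

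**Figure D2:**
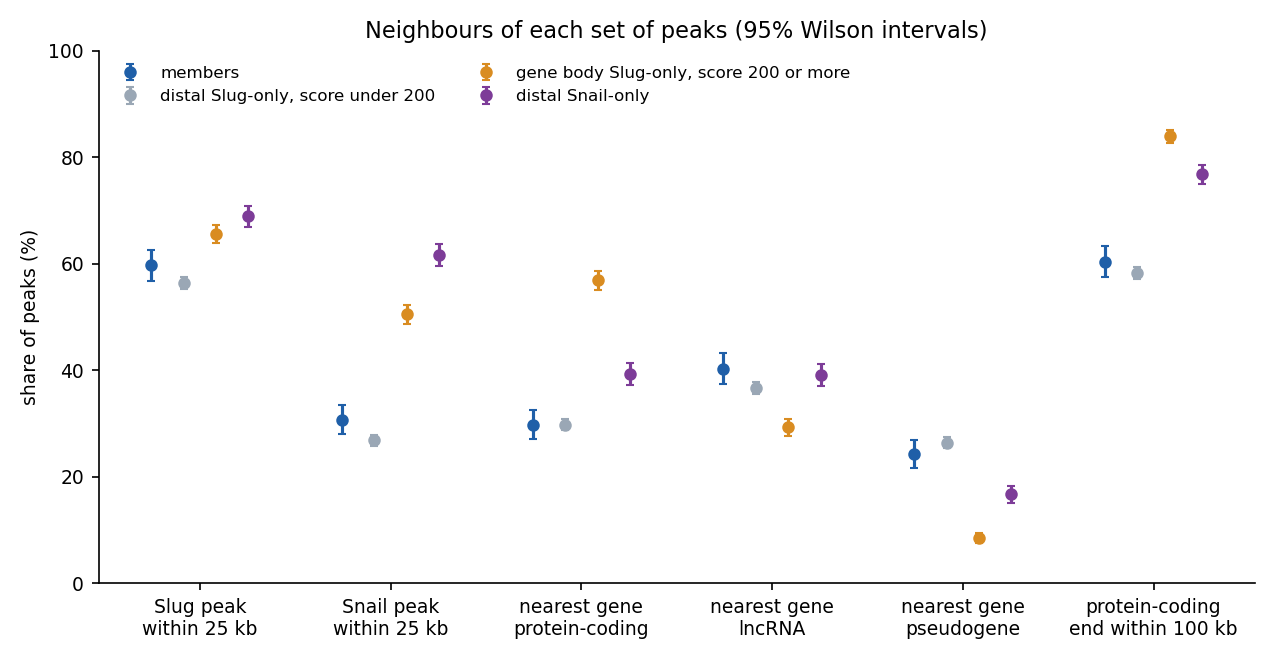
Share of peaks in percent (y axis) with each kind of neighbour (x axis), for the 1084 distal Slug-only peaks scoring 200 or more (members, blue), 7385 lower-scoring distal Slug-only peaks (grey), 3102 gene body Slug-only peaks scoring 200 or more (orange) and 2107 distal Snail-only peaks (purple). Points are shares and bars 95% Wilson intervals. The Snail-only peaks were taken at any score. Blue and grey lie close together in every column, whereas orange and purple are higher for Snail peaks within 25 kb, at 50.5% and 61.6% against 30.7%.

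Genes next to the sites were protein-coding less often than those next to all Slug peaks (45.9%). Of all annotated genes 43.8% are protein-coding. The nearest gene end belonged to a lncRNA gene for 437 (40.3%, 37.4 to 43.3), to a protein-coding gene for 322 (29.7%, 27.1 to 32.5), to a pseudogene for 262 (24.2%) and to other kinds for 63. The protein-coding share matched that of low-scoring distal peaks (difference -0.0447 points, -2.89 to 2.93), and the lncRNA share was 3.69 points higher (0.600 to 6.83). Distal Snail-only peaks, picked by the same distances, were nearer to protein-coding genes: 39.3% (37.3 to 41.4) had 1 as nearest gene, and 76.9% had a protein-coding end within 100 kb, against 60.4% (57.5 to 63.3) of distal Slug-only peaks. The median distance to a protein-coding end was 68.5 kb (27.8 and 184) for the Slug and 37.8 kb (19.2 and 92.3) for the Snail sites. The 2 sets differ in line, factor, antibody and width, and only the Slug set was cut by score. These differences cannot be told apart. Strand was known for the nearest protein-coding gene of 503 sites within 100 kb, and 264 (52.5%, 48.1 to 56.8) lay on its start side.

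Within the allowed range the sites lay slightly nearer to gene ends than low-scoring distal peaks, with medians of 26.4 and 27.5 kb. No interval was taken for this difference. Chromosomes showed little structure. From 10 to 20 kb from a gene end there were 411 sites (37.9%, 35.1 to 40.8), against 34.3% (33.2 to 35.4) of low-scoring distal peaks, and from 75 to 100 kb 74 (6.83%) against 9.03%. Score and distance to a gene end were unrelated among the sites (rho -0.03, n = 1084). By chromosome the sites were between 1.85% of Slug peaks (chromosome 9, 1.34 to 2.57) and 3.23% (chromosome 17, 2.49 to 4.17), and the share over all chromosomes, 2.61%, was inside the interval of every one but chromosome 9.

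Start sites of the neighbours were examined next. Peaks at start sites did not enter the rule directly. They come from the same Slug and Snail lists, however, and the rule set the distance to gene ends, so this readout is not independent of it. Of 463 protein-coding genes with an annotated start that were nearest to a site within 100 kb, 61 (13.2%, 10.4 to 16.6) had a Slug peak and 269 (58.1%, 53.6 to 62.5) a Snail peak within 1 kb of a start. Over all 17491 such genes the shares were 10.3% and 51.8%. For genes next to low-scoring distal peaks they were 10.2% (9.03 to 11.6) and 51.1% (49 to 53.2), and next to distal Snail-only peaks 12.4% (10.4 to 14.6) and 66.4% (63.3 to 69.4). The Snail share next to high-scoring distal Slug sites was thus above that next to low-scoring ones, with intervals that do not touch. It was below that next to distal Snail sites. The Slug intervals overlap. All these intervals cover counting error over genes in these libraries only. Start-site shares were not compared among peaks of like width, so whether the Snail difference between high-scoring and low-scoring sites holds there was not tested.

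The third question was which known genes of epithelium, EMT and mammary signalling have such a site nearby. Of 21883 protein-coding genes, 1273 (5.82%) had a distal Slug-only peak within 100 kb of an end. Of 270 genes in 11 lists, 34 did, with 41 pairs of gene and peak. In 28 of the 41 the listed gene was the nearest protein-coding gene, and in 39 no protein-coding gene lay wholly between. Besides the cases given with their genes below, another gene was nearer to the sites of Dsp (Riok1), Smad7 (Dym), Ltbp1 (Ttc27), Tead4 (Tspan9) and Atf3 (Nenf). No list was tested against the others. Genes of the 11 lists have more room around them, so that more sites can fall next to them. Room is the stretch free of other protein-coding genes, counted up to 100 kb a side. Its median was 37.8 kb over all protein-coding genes and 45.0 to 156 kb in the 11 lists. Among the control lists it was 102 kb for neuronal, 47 kb for liver, 44.4 kb for immune cell and 14.2 kb for housekeeping genes. The part of this room in the counts was not tested.

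**Figure D3:**
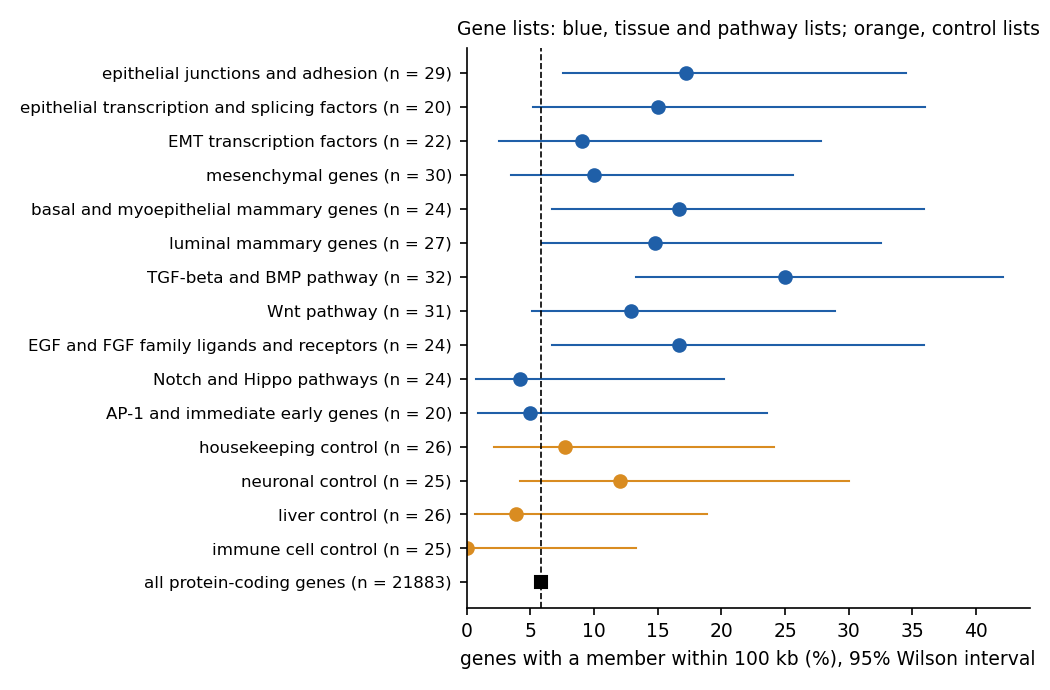
Share of genes in each list with a distal Slug-only peak within 100 kb (x axis, percent) with its 95% Wilson interval, by list (y axis, number of genes in brackets). Blue points are tissue and pathway lists, orange points control lists, and the dashed line with the black square is the share of all protein-coding genes, 5.82%. The TGF-beta and BMP list is highest at 25%, and the immune list is at 0.

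TGF-beta and BMP genes, which encode signals that induce EMT and pattern the gland, had sites most often: 8 of 32 (25%, 13.3 to 42.1). Low-scoring distal Slug peaks were near 62.5% of the same genes, against 26.1% of all protein-coding genes, and the median room was 107 kb. Among inhibitors, Smad6, an inhibitory Smad, had 2 sites on its far side, with scores of 593 at 41.1 kb (chr9:63911755-63912103) and 251 at 90.7 kb. Smad7, the other inhibitory Smad, had 1 with a score of 311, and Nog, the BMP antagonist noggin, 1 of 227 at 37.1 kb. Of the ligands, Bmp7 had sites of 408 at 42.9 kb and 274 at 63.0 kb, and Bmp2 1 of 203 at 60.6 kb. Receptors were Acvr2a (362 at 59.6 kb) and Acvr1b (263 at 15.1 kb, next to Acvrl1), and Ltbp1, which binds latent TGF-beta, had a site of 403 at 74.7 kb. No site lay within 100 kb of the ligand genes Tgfb1 to Tgfb3 or of the TGF-beta receptor genes Tgfbr1 and Tgfbr2.

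Epithelial junction genes had sites in 5 of 29 cases (17.2%, 7.60 to 34.5), beside 27.6% for low-scoring distal Slug peaks. Cldn3 and Cldn4 share the site described with their promoters, which was bounded by other Slug peaks. The highest-scoring of these, at 492, lay 6.36 kb from it and was overlapped by a Snail peak. Cldn1, another claudin, had a site of 278 at 28.6 kb on its start side. Dsp, the desmosomal plaque gene desmoplakin, had 1 of 337 at 53.0 kb, and Ctnnd1 (p120 catenin) 1 of 212 at 39.5 kb on its far side. No gene of the classical cadherins in this list had a site within 100 kb.

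Of the epithelial transcription and splicing factors 3 of 20 had sites (15%, 5.24 to 36.0), and low-scoring distal peaks were near 65.0%. Tfap2a, encoding the ectodermal factor AP-2alpha, had the highest-scoring site of any listed gene and another, 710 at 43.7 kb (chr13:40669887-40670349) and 557 at 95.8 kb. Both lay on its far side, with Snail peaks 18.8 and 33.3 kb away. Gata3, the luminal master regulator, had 2 on its far side, 354 at 11.6 kb (chr2:9845393-9845614) and 213 at 59.4 kb. Trp63, whose product defines basal cells, had 1 of 308 at 37.4 kb, with P3h2 nearer to it.

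**Figure D4:**
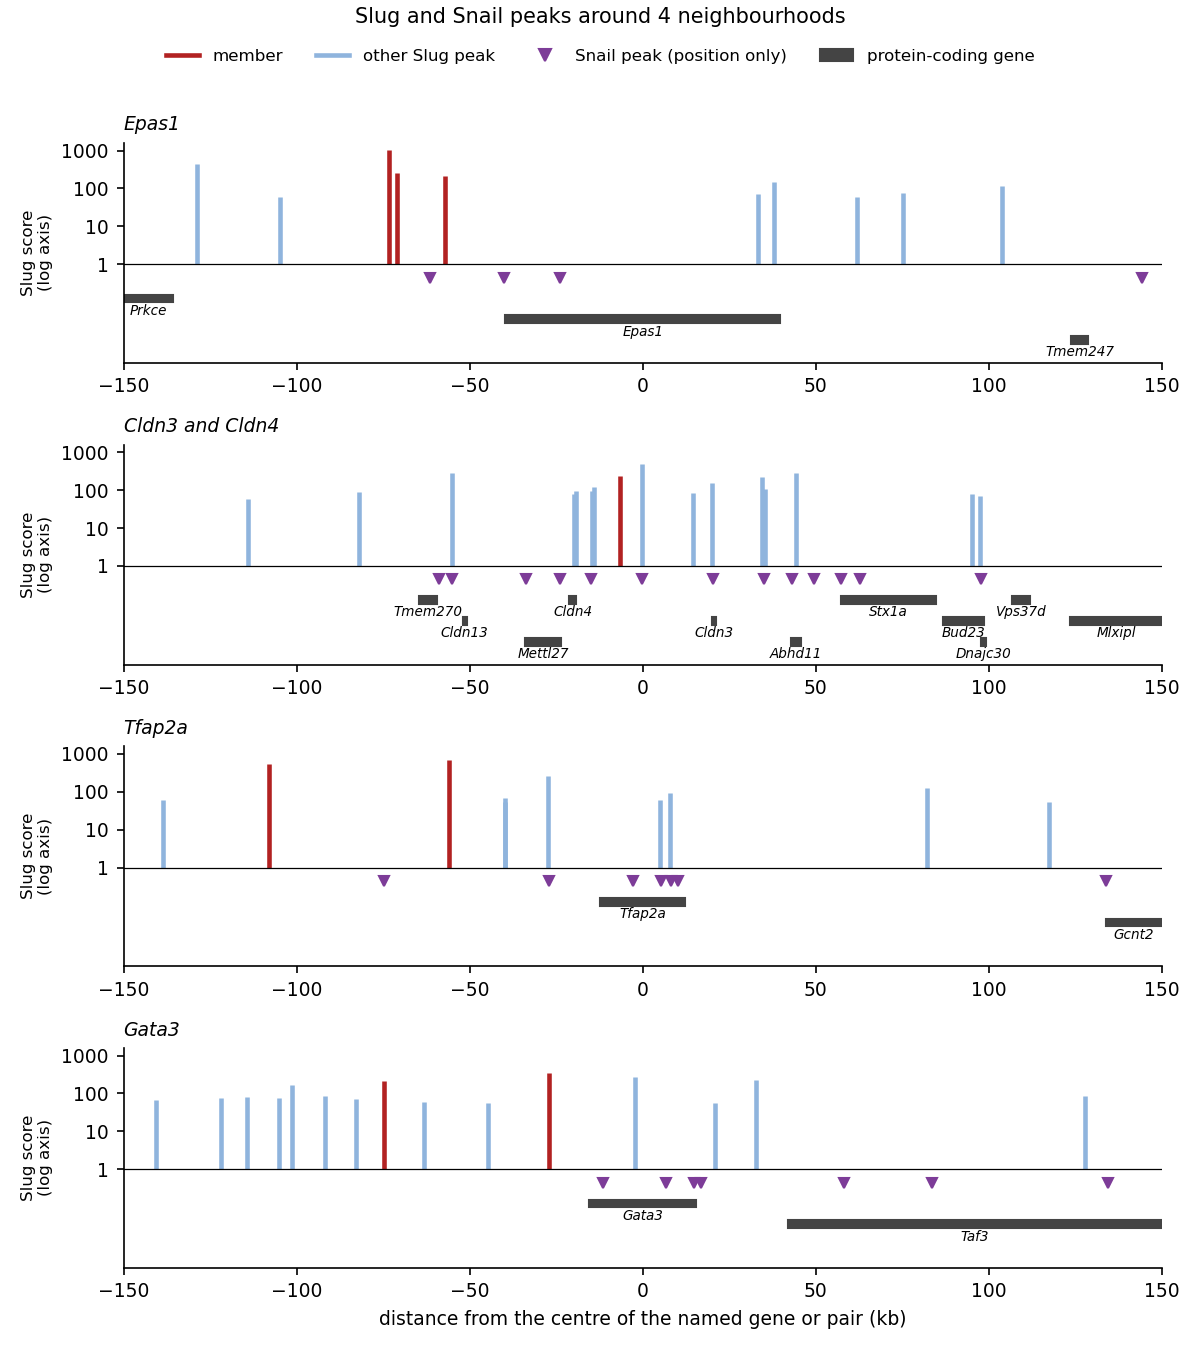
Slug and Snail peaks in 300 kb around Epas1, the pair Cldn3 and Cldn4, Tfap2a and Gata3; the x axis is distance in kb from the centre of the named gene or pair. Red bars are distal Slug-only peaks scoring 200 or more, blue bars other Slug peaks (height is the score, log axis), triangles Snail peaks by position only, and dark boxes protein-coding genes. At Tfap2a and Gata3 both red bars lie on the same side of the gene. No triangle lies on any red bar, because the rule bars an overlap with a Snail peak.

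EMT transcription factors had sites in 2 of 22 cases (9.09%, 2.53 to 27.8), although low-scoring distal peaks were near 72.7% and the room was the largest of any list, 156 kb. Foxq1, a forkhead factor that can induce EMT, had 2 sites, 422 at 38.4 kb and 312 at 54.9 kb, and Runx1 1 of 295 at 47.2 kb on its start side. Snai1, Snai2, Zeb1, Zeb2 and Twist1 had none within 100 kb. Mesenchymal genes had sites in 3 of 30 cases (10.0%, 3.46 to 25.6). Pdgfra, a PDGF receptor gene of mesenchymal cells, had sites on both sides, 429 at 25.5 kb on the far side and 312 at 53.5 kb on the start side, where Gsx2 was nearer. Col6a1 had 1 of 523 at 44.3 kb, nearer to Col6a2, and Col3a1 1 of 273 at 86.6 kb.

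**Figure D5:**
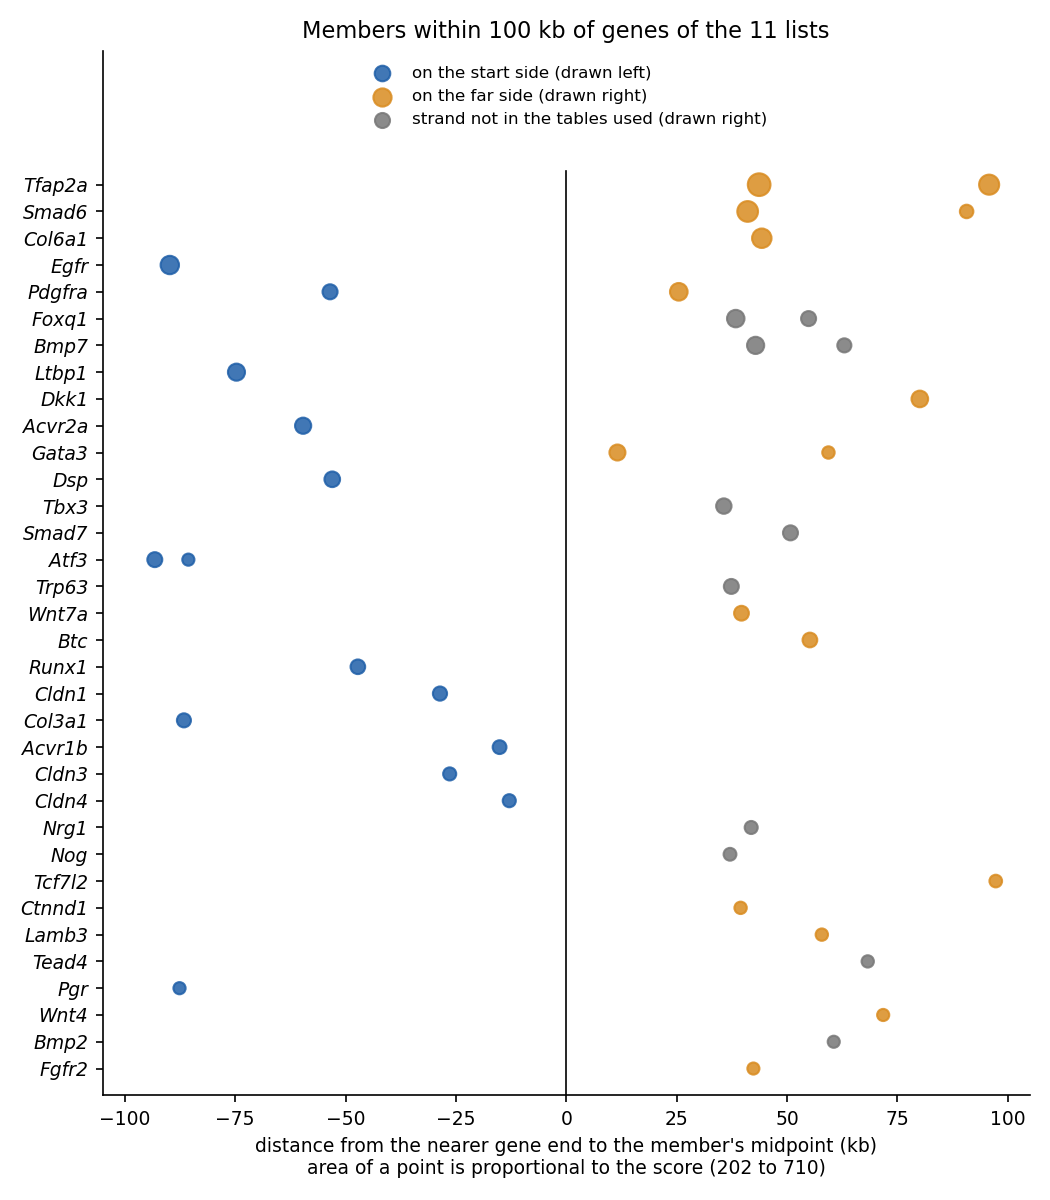
Distance in kb (x axis) from the nearer end of each listed gene (y axis, 34 genes of the 11 lists) to the midpoint of each distal Slug-only peak within 100 kb. Blue points lie on the start side and are drawn left, orange points lie on the far side and grey points have no known strand, both drawn right; point area is proportional to score. Tfap2a carries the highest-scoring point, and 14 of 41 points are on the start side and 16 on the far side.

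Mammary lineage genes were represented on both sides of the gland. Basal and myoepithelial genes had sites in 4 of 24 cases (16.7%, 6.68 to 35.9): besides Trp63 these were Egfr, the EGF receptor gene, with 467 at 89.8 kb on its start side, Nrg1 (neuregulin, 235 at 41.9 kb) and the laminin gene Lamb3 (211 at 57.9 kb, with 1 gene between and Camk1g nearer). Luminal genes had 4 of 27 (14.8%, 5.92 to 32.5): Gata3, Tbx3 (328 at 35.7 kb), the progesterone receptor gene Pgr (205 at 87.6 kb) and its mediator Wnt4 (204 at 71.8 kb, with 1 gene between). The counts of the 2 lists do not differ beyond their intervals.

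The remaining signalling lists gave 4 of 31 Wnt genes, 4 of 24 EGF and FGF genes, 1 of 24 Notch and Hippo genes and 1 of 20 AP-1 and immediate early genes. Dkk1, a secreted Wnt inhibitor, had the highest-scoring Wnt site, 382 at 80.1 kb, followed by Wnt7a (303 at 39.7 kb) and Tcf7l2 (221 at 97.3 kb). Btc (betacellulin) had a site of 299 at 55.2 kb and Fgfr2 1 of 202 at 42.4 kb. Tead4 had 1 of 210 and Atf3 2, 309 and 204. Control lists gave 2 of 26 housekeeping, 3 of 25 neuronal, 1 of 26 liver and 0 of 25 immune cell genes, the last of which allows a share of up to 13.3% (upper Wilson bound). The neuronal list had a median room of 102 kb, and low-scoring distal peaks were near 48% of its genes. The Wilson interval of its share, 4.17 to 30%, held the shares of the Wnt (12.9%), luminal (14.8%) and TGF-beta and BMP (25%) lists. The site of the neuronal gene Gria1, 665 at 71.0 kb, scored higher than any in the tissue and pathway lists but that of Tfap2a. The site counted for the neuronal gene Stx1a is the peak between Cldn3 and Cldn4, 63.7 kb away with 2 protein-coding genes between.

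Start sites of the listed genes with a distal peak were read in the same way. Of 25 of the 34 genes with an annotated start, 6 had a Slug and 15 a Snail peak within 1 kb of it, beside 10.3% and 51.8% of all genes with a start. No interval was taken for these small counts. Slug peaks lay at the starts of Cldn3, Cldn4, Ctnnd1, Tfap2a, Runx1 and Btc. Of these genes, all but Cldn4 also had a Snail peak within 1 kb of the start.

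Very narrow sites stood apart in the list. In all, 6 peaks were under 100 bp wide and none was from 100 to under 150 bp. Of these, 3 formed the triplet on chromosome Y at chrY:4075759-4078776, with widths of 76, 82 and 79 bp and scores of 284, 323 and 337, each 1.47 kb from the next. The others were near Cr2 on chromosome 1 (80 bp, score 231), Dspp on chromosome 5 (87 bp, 268) and Ints13 on chromosome 6 (91 bp, 392). Repeat content was not analysed here.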

How the data were processed

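The deposited files are 1 peak list per ChIP library, in mm10 coordinates, with a score per peak from the authors' peak caller; Bowtie and MACS 1.4.2 are named in the submitters' processing notes. Not given in the sources used here were its scale, the settings and any control library, so the score was used only to rank or filter Slug peaks. Depth is unknown and the 2 inputs had no list used here. Per the labels' protocols, crosslinking used 1% formaldehyde (10 min) and sonication gave fragments of 200 to 500 bp.

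Starts were made 1-based. Genes (49939, of which 21883 protein-coding) came from a RefSeq table of GRCm38.p6, and strand and start sites from its promoter windows (17491 protein-coding genes). Distances ran from peak midpoints to the nearer gene end. Shares carry 95% Wilson and differences Newcombe intervals, and with 1 library a group there is no test. Python 3.11.15, numpy 2.4.6, pandas 2.3.3, scipy 1.17.1 and matplotlib 3.10.9 were used, and functions were tested on simulated data. Named were the 15 highest-scoring sites, the 2 highest per gene list, listed genes with a site, triplets, threshold and width extremes (the narrow ones extended to all under 100 bp after values were seen), and genes with most sites (8, since others tied). Printed promoters were chosen after values were seen. Members and 15 lists (385 memberships, all matched) were chosen with earlier results of these data known. Planned motif and repeat measures of the peaks themselves were not run.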

Additional observations from a re-analysis of the deposited data

How the results depend on the processing

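Lowering the score threshold to 100 gave 2951 sites with a median width of 250 bp and 86 listed genes with a site, and raising it to 400 gave 239 sites, 296 bp and 10 listed genes (1084, 271 bp and 40 as reported, controls included). At 400 the share with a Snail peak within 25 kb was 33.9% in place of 30.7%. Starting at 20 kb from a gene end left 673 sites. Counting neighbours within 10 kb gave 30.6% for Slug and 14.3% for Snail peaks. Listed genes fell to 21 within 50 kb and to 24 when measured from annotated start sites, an alternative chosen after seeing the data that drops genes without such an entry. In all, 12 alternative values moved as given here and 14 stayed within their interval or within 1.5 times, among them 1067 sites with no Snail peak within 1 kb, 1164 with reciprocal overlap, 1180 with protein-coding genes only and 1084 with the whole peak outside genes. No paired analysis was possible because each group has 1 library. Alternatives for motif and repeat shares of the peaks were not run.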
